A study of Danio rerio with 6 samples.

Results

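The genes described here encode RNA-binding proteins known from lens and muscle biology, measured in whole zebrafish embryos that lack normal rbm24a. The set was chosen by gene symbol, namely rbm24a, rbm24b, caprin2, tdrd7a, tdrd7b, celf1, rbpms2a and rbpms2b. Of these 8 symbols, 7 matched a row of the authors' table of 31624 genes. No row carries the symbol tdrd7b. A row labelled TDRD7 (1 of many), whose identifier ENSDARG00000077523 is named TDRD7 in a table of gene names, is described beside tdrd7a as a second tdrd7 gene and is not counted among the 7.

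The tested embryos were rbm24a mutants of the AB strain (3 libraries) carrying a deletion of 8 bp made with TALENs, which are paired nucleases directed to a chosen site. The controls were wild-type AB embryos (3 libraries), and both groups were taken whole at 33 hours post fertilization. The labels name a different exon for the deletion in each mutant library, so the exon is not stated here. The series is titled after a role of Rbm24 in crystallin accumulation and lens transparency. The labels do not say whether each library came from a separate clutch or how many embryos were pooled, so p-values measure the spread between these libraries.

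RNA-binding proteins decide when a transcript is spliced, stored, translated or degraded, and lens fibre cells and muscle cells depend on them because both make very large amounts of a few proteins. Rbm24 is a protein with a single RNA recognition motif that acts in lens, heart and skeletal muscle. Celf1 controls splicing, decay and translation, and its loss gives lens defects in fish and mouse. Tdrd7 is a Tudor-domain protein of cytoplasmic RNA granules, required for a clear lens in human and mouse and present in the germ granules of germ cells. Caprin2 is an RNA-binding protein of the Caprin family that also acts in Wnt signalling, and it is needed for normal lens shape in mouse. Rbpms2, also called Hermes, is found in heart muscle and in retinal ganglion cells.

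Each library held between 13242789 and 16043155 reads assigned to genes. Mutant replicate 2 stood apart from the other mutants, with a mean chi-square per gene of 21.1 and 23.5 against mutant replicates 1 and 3, while those 2 differed by 3.63 and wild-type pairs by 5.56 to 6.88. Every marker found for lens, skeletal muscle, heart, retinal ganglion cells, germ cells, smooth muscle, blood, epidermis and yolk or liver had reads. Smooth muscle markers gave 1 higher of 2 tested, blood markers 2 higher and 1 lower of 4, epidermis markers 1 lower of 3, and yolk or liver markers 1 higher and 1 lower of 2. Over all genes tested in the same fit, 6.71% were higher and 7.48% lower. In whole embryos, fewer cells of a type and less RNA per cell cannot be told apart.

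Among the 7 genes, caprin2 and rbm24a were higher in the mutants and rbpms2b was lower, while rbm24b, celf1 and rbpms2a did not pass the test. These 6 had a mean of at least 0.5 FPKM (reads per kb of exon, scaled to the gene reads of the library) over the 6 libraries and so entered the edgeR quasi-likelihood test, whose p-values were adjusted by the Benjamini-Hochberg method over 16489 genes. The called share of all genes tested was 14.2%, made up of 6.71% higher and 7.48% lower in the mutants. The levels of 3 of the 6 did not overlap between the groups, beside 30.7% of all genes tested. Tdrd7a was below this minimum, and its few reads were mostly in wild-type libraries. The median log2 change over the 6 tested genes was 0.10, beside -0.00172 over all genes tested.

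**Figure D1:**
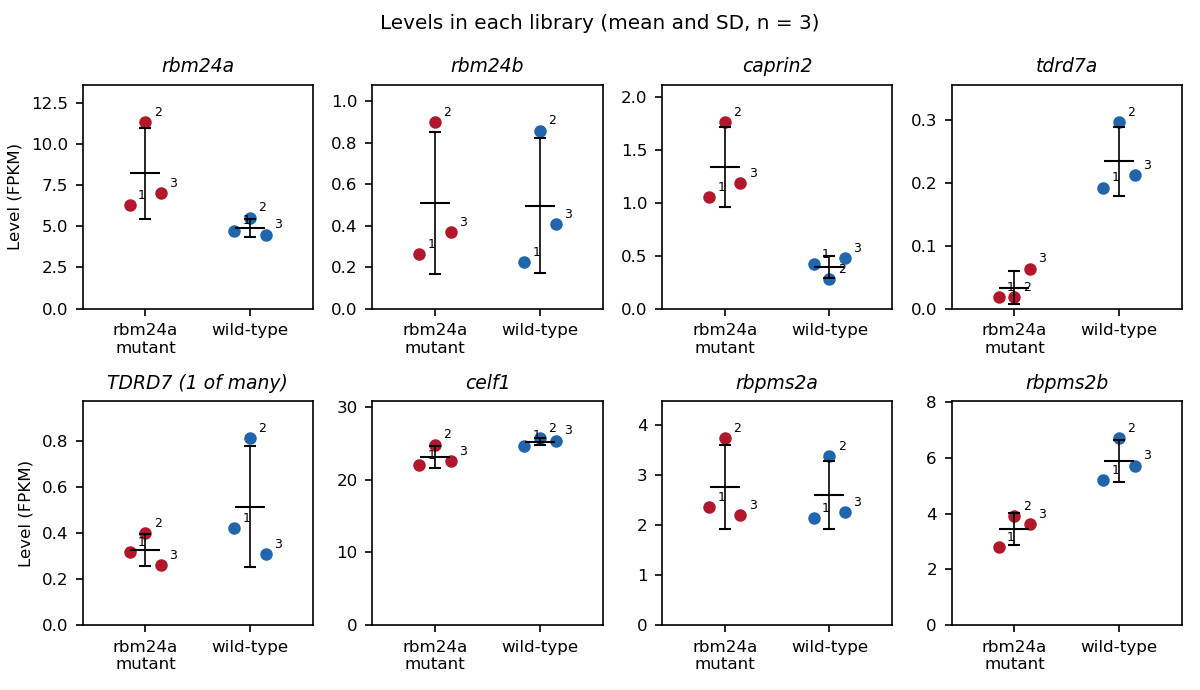
Level of each gene in FPKM (vertical axis, linear, from 0) in the 3 rbm24a mutant libraries (red) and the 3 wild-type libraries (blue), with replicate numbers beside the points and the mean and SD in black. The groups are apart for rbm24a, caprin2, tdrd7a and rbpms2b and overlap for the other 4 rows.

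Rbm24a (ENSDARG00000102995, 3259 bp of exon) is the mutated gene. It was at 6.27, 11.3 and 7.0 FPKM in mutant replicates 1 to 3, against 4.73, 5.52 and 4.49 FPKM in wild-type replicates 1 to 3. The mutant libraries all lay above the wild-type ones, and mutant replicate 2 was well above the other mutants. The mutant-to-wild-type ratio of the mean FPKM was 1.67. The fitted log2 change was 0.77 (95% interval 0.43 to 1.12), which passed (edgeR adjusted p = 0.00571). Without mutant replicate 2 the log2 change was 0.56 (edgeR adjusted p = 0.00122). With limma on log2(FPKM + 1) in place of edgeR the change missed the threshold (adjusted p = 0.0711), as it did with a pseudocount of 0.1 (adjusted p = 0.0676). A deletion of 8 bp leaves reads countable, so the level of rbm24a does not check the genotype.

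The summed level of the skeletal muscle markers was 7805 to 8144 FPKM in mutant libraries and 5942 to 7059 FPKM in wild-type libraries. Of 7 tested, 1 (myhz1.1, a fast myosin heavy chain) passed as higher, beside 6.71% higher and 7.48% lower over all genes tested. Without mutant replicate 2, 7 passed as higher, in a fit that called 29.3% of all genes (14.5% higher and 14.8% lower). Another row of the symbol myhz1.1, below the minimum of 0.5 FPKM, was lower in mutants without overlap. It had 5, 11 and 13 reads in mutants and 16, 16 and 26 in wild-type. With no minimum on FPKM it did not pass (log2 change -1.04; edgeR adjusted p = 0.144). Heart markers summed to 121 to 144.7 FPKM in mutants and 133.9 to 155.8 FPKM in wild-type, with 1 of 6 lower (vmhc, the ventricular myosin) and 0 to 2 lower without 1 library. The 2 came without mutant replicate 2, in the fit that called 14.8% of all genes lower. The vmhc call was lost in 4 of the 6 fits without 1 library (edgeR adjusted p of up to 0.113). Lens markers were lower, with 9 of 10 passing and sums of 560.6 to 643.1 FPKM in mutants against 1014 to 1266 FPKM in wild-type. None of the lens, muscle and heart markers was at 0 in all libraries. Their part in the level of rbm24a was not tested.

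Rbm24b (ENSDARG00000031809, 1357 bp), the duplicate of rbm24a in fish, was close to the detection limit in both groups. It had 5, 17 and 8 reads in mutant replicates 1 to 3, against 4, 16 and 8 reads in wild-type replicates 1 to 3. The groups overlapped fully, and replicate 2 was the highest library of each. The log2 change was 0.06 with a 95% interval of -1.17 to 1.30, wide enough to hold a 2-fold change in either direction, and no difference was detectable at this depth (edgeR adjusted p = 0.962). Counted per length, rbm24b made up 4.0%, 7.36% and 4.99% of the combined rbm24 level in mutants and 4.50%, 13.5% and 8.35% in wild-type. Rbm24a was therefore the main rbm24 transcript in every library.

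Of 35 tested genes named rbm with a number, 3 passed, beside 14.2% of all genes tested. Besides rbm24a, rbm42 was higher by 0.41 (edgeR adjusted p = 0.0421) and rbm14b, which encodes a protein related to the paraspeckle component RBM14, was lower by a log2 change of -0.85 (edgeR adjusted p = 8.34e-05). The median log2 change of the 35 was 0.03. Rbm14b had 498, 511 and 570 reads in mutants and 840, 968 and 965 in wild-type, with no overlap. The call on rbm42 was kept only without mutant replicate 2 and was lost without any 1 of the other 5 libraries (adjusted p of 0.114 to 0.156). Without mutant replicate 2, 5 genes of the family were higher and 4 lower, beside 29.3% of all genes called in that fit.

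Caprin2 (ENSDARG00000020749, 3630 bp) had the largest rise of the tested genes in the set. It was at 1.05, 1.76 and 1.18 FPKM in mutant replicates 1 to 3, against 0.416, 0.281 and 0.478 FPKM in wild-type replicates 1 to 3. These levels correspond to 54, 89 and 69 reads in mutants and 20, 14 and 25 reads in wild-type, with no overlap. The log2 change was 1.79 (SE 0.29, 95% interval 1.17 to 2.43; edgeR adjusted p = 0.00104). Its wild-type mean of 0.392 FPKM is below the minimum of 0.5 FPKM, so caprin2 entered the test through its mutant mean of 1.33 FPKM. With no minimum on FPKM the log2 change was also 1.79 (edgeR adjusted p = 8.2e-06), in a fit that called 5.48% of 25307 genes higher. Every alternative that tested caprin2 kept the call, with a smaller log2 change of 0.73 under limma on log2(FPKM + 1), a scale that understates changes of low genes. Caprin2 is the only gene of the set among the 743 of the authors' deposited table of differential expression, with a log2 change of 1.39 and an adjusted p of 5.73e-07.

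The other genes of the family are far more abundant than caprin2. Caprin1b, a stress-granule and mRNA-transport protein, was at 76.9 ± 2.70 FPKM in mutants and 61.6 ± 0.860 FPKM in wild-type (SD, n = 3 each). Its log2 change of 0.38 passed (edgeR adjusted p = 0.0368), a call kept without mutant replicate 2 and lost without any 1 of the other libraries (adjusted p of 0.105 to 0.136). Caprin1a, its duplicate, was at 34.9 ± 2.31 FPKM in mutants and 38.1 ± 1.05 FPKM in wild-type, a log2 change of -0.07 that did not pass (edgeR adjusted p = 0.772). Caprin2 thus differed by a factor of 3.41 in mean FPKM while remaining the rarest caprin transcript in both groups.

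Tdrd7a (ENSDARG00000032808, 3922 bp) had few reads, most of them in wild-type libraries. It had 1, 1 and 4 reads in mutant replicates 1 to 3, against 10, 16 and 12 reads in wild-type replicates 1 to 3, or 6 against 38 reads in all. The groups did not overlap, and the level in both was low, at 0.0333 ± 0.0262 FPKM in mutants and 0.234 ± 0.0555 FPKM in wild-type (SD, n = 3 each). With no minimum on FPKM, over 25307 genes of which 12.2% were called (5.48% as higher and 6.76% as lower), the log2 change was -2.63 (SE 0.72) and passed (edgeR adjusted p = 0.00585). Without mutant replicate 1 the adjusted p was 0.0599, so that call was lost. With limma the change was -0.25 on log2(FPKM + 1) and -1.32 with a pseudocount of 0.1, and both passed.

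The second tdrd7 row, TDRD7 (1 of many), was not called. It had 16, 20 and 15 reads in mutants and 20, 40 and 16 reads in wild-type, which overlap, and its log2 change of -0.61 did not pass with no minimum on FPKM (95% interval -1.40 to 0.18; edgeR adjusted p = 0.396). Without wild-type replicate 2, its highest library, the log2 change was -0.16. The level of tdrd7a relative to this row, per length, was 0.0572, 0.0458 and 0.244 in mutants and 0.458, 0.366 and 0.687 in wild-type. The difference of the log2 ratios was -2.50, and the exact permutation test, two-sided, gave p = 0.1, the smallest value that 3 libraries against 3 allow.

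Of the germ cell markers, ddx4 and nanos3 were lower in mutants, as tdrd7a was. Ddx4, the germ cell RNA helicase Vasa, had 7, 9 and 13 reads in mutants and 44, 46 and 63 reads in wild-type, a log2 change of -2.42 (SE 0.33; edgeR adjusted p = 0.000256). Nanos3, a translational repressor of primordial germ cells, had 13, 2 and 4 reads in mutants and 23, 51 and 50 reads in wild-type, a log2 change of -2.68 (SE 0.54; edgeR adjusted p = 0.00428). Neither gene overlapped between the groups, and both calls held without any 1 library. Dazl, a germ cell RNA-binding protein, had 1, 0 and 0 reads in mutants and 2, 4 and 5 reads in wild-type. Ca15b, a carbonic anhydrase used as a germ cell marker, had 1, 0 and 1 reads in mutants and 4, 6 and 5 reads in wild-type.

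Over all 8 germ cell markers, 2 of the 3 tested were lower and 0 higher, beside 7.48% and 6.71% of all genes tested. Those 2, ddx4 and nanos3, reached the minimum of 0.5 FPKM only through wild-type, with means of 1.265 and 2.64 FPKM. Their mutant means were 0.224 and 0.389 FPKM, so the 3 tested are partly selected for a high wild-type level. With no minimum on FPKM, 2 of the 8 were lower and 0 higher, beside 6.76% and 5.48% of 25307 genes. Of the 8, 5 were lower in mutants without overlap, among them gra, and 3 of these 5 did not pass a test; the share lower without overlap was 14.8% over the 25307 genes with reads and 17.7% over those above the FPKM minimum. Their summed level was 2.21 to 2.44 FPKM in mutants and 5.22 to 7.40 FPKM in wild-type. No marker of the list was at 0 in all libraries. Piwil1 overlapped between the groups, with 56 reads in all mutants and 67 in all wild-type libraries, as did dnd1, with 13 and 18. Tdrd6, which is also a Tudor-family gene, overlapped too, with 78 reads in mutants and 116 in wild-type. The part of germ cell number in the tdrd7a reads was not tested.

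**Figure D2:**
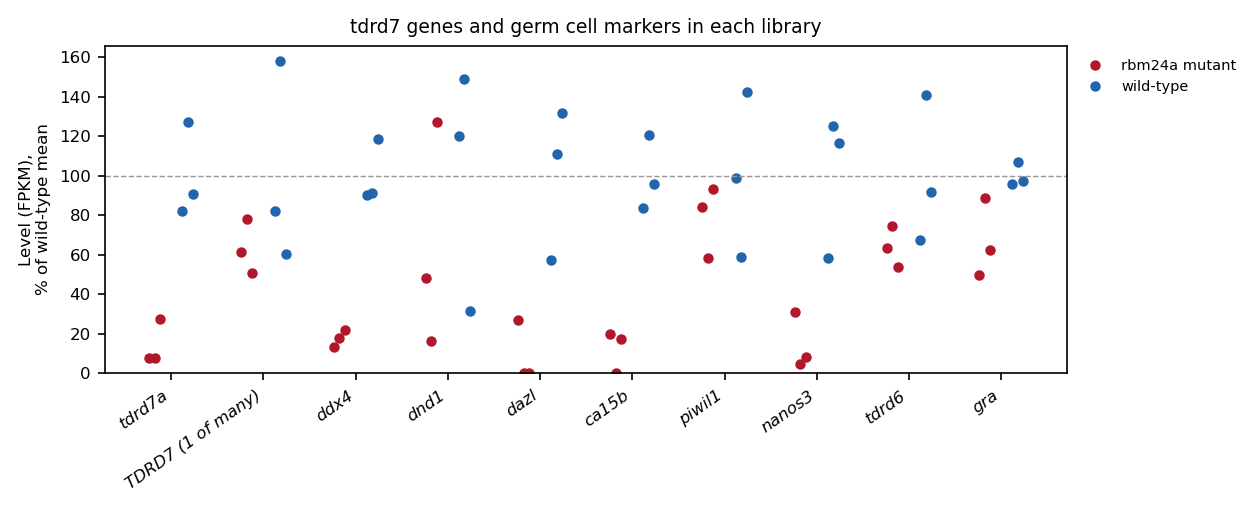
Level of tdrd7a, TDRD7 (1 of many) and the 8 germ cell markers in each library, as a percentage of the wild-type mean FPKM (vertical axis, linear, from 0), for rbm24a mutant libraries (red) and wild-type libraries (blue). Tdrd7a, ddx4, nanos3, dazl, ca15b and gra lie apart between the groups. Reads were few for dazl and ca15b and, in mutants, for tdrd7a, ddx4 and nanos3.

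Of 10 Tudor-family rows, the 3 that were tested did not pass. They were snd1, tdrd3 and tdrkh, with log2 changes of 0.28, -0.23 and 0.35, and 2 of the 3 passed as higher without mutant replicate 2, beside 14.5% of all genes. With no minimum on FPKM, tdrd1, a germ-line Tudor protein, joined tdrd7a among the genes lower in mutants, with 4, 4 and 10 reads in mutants and 16, 18 and 18 reads in wild-type (log2 change -1.56; edgeR adjusted p = 0.0341).

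Celf1 (ENSDARG00000005315, 4109 bp) was the most abundant gene of the set and the steadiest. It was at 21.9, 24.8 and 22.6 FPKM in mutant replicates 1 to 3, against 24.7, 25.7 and 25.4 FPKM in wild-type replicates 1 to 3. Mutant replicate 2 lay inside the wild-type range and the other mutants just below it. The log2 change was -0.08 with a 95% interval of -0.27 to 0.12 (edgeR adjusted p = 0.662). None of the 6 tested celf genes passed with all 6 libraries, and their log2 changes lay between -0.37 for celf3b and 0.38 for celf4. Without mutant replicate 2, 3 of the 6 passed as lower, beside 14.8% of all genes. Celf2, a nervous system relative, was at 438 reads in mutant replicate 2 and 488 in wild-type replicate 2, against 213 to 289 reads in the other 4 libraries.

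Of the rbpms2 genes, rbpms2b was lower in mutants and rbpms2a was not called. Rbpms2b (ENSDARG00000079578, 2609 bp) was at 2.80, 3.91 and 3.61 FPKM in mutant replicates 1 to 3, against 5.21, 6.70 and 5.72 FPKM in wild-type replicates 1 to 3. All mutant libraries were below all wild-type libraries. The log2 change was -0.72 (SE 0.15, 95% interval -1.04 to -0.40; edgeR adjusted p = 0.00535), and every alternative that tested the gene kept the call.

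Rbpms2a (ENSDARG00000045930, 1442 bp) was at 2.36, 3.74 and 2.20 FPKM in mutants, against 2.15, 3.38 and 2.26 FPKM in wild-type. The groups overlapped, with replicate 2 again the highest in each. Its log2 change was 0.13 with a 95% interval of -0.43 to 0.69 (edgeR adjusted p = 0.803). The level of rbpms2a relative to rbpms2b, per length, was 0.843, 0.956 and 0.611 in mutants and 0.412, 0.505 and 0.395 in wild-type. The ratio was higher in all 3 mutant libraries, by 0.86 on the log2 scale, and the exact two-sided permutation test gave p = 0.1, again the smallest possible. Another relative, the row RBPMS (rbpms in the table of gene names), had 29, 36 and 38 reads in mutants and 38, 41 and 60 in wild-type and did not pass (log2 change -0.47; edgeR adjusted p = 0.289). Its levels of 2.40, 3.02 and 2.76 FPKM in mutants lay below those of 3.35, 3.48 and 4.86 FPKM in wild-type. Such separation, lower in mutants, was seen in 17.7% of all genes tested.

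Rbpms2 genes are used as markers of retinal ganglion cells, so markers of those cells were measured beside them. Of 6 tested, 1 was lower and 0 higher, beside 7.48% and 6.71% of all genes tested. Without mutant replicate 2, 2 were lower, beside 14.8% of all genes. Atoh7, a transcription factor that starts ganglion cell formation, had 55, 145 and 78 reads in mutants and 316, 302 and 242 reads in wild-type, a log2 change of -1.69 (edgeR adjusted p = 0.000546). Pou4f2, pou4f1 and isl2b, later ganglion cell transcription factors, had log2 changes of -0.01, 0.00 and 0.33 and did not pass. The list summed to 52.0 to 84.7 FPKM in mutants and 76.4 to 88.3 FPKM in wild-type. Most of this sum came from alcama (mean 33.27 FPKM in mutants and 35.25 FPKM in wild-type) and elavl3 (14.66 and 17.57 FPKM). Neither passed (log2 changes of -0.04 and -0.23), so the sum says little about the other markers. No marker was at 0 in all libraries, but pou4f3 had only 1 read in mutants and 4 in wild-type. The part of these cells, or of the heart markers given above, in the rbpms2b level was not tested.

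**Figure D3:**
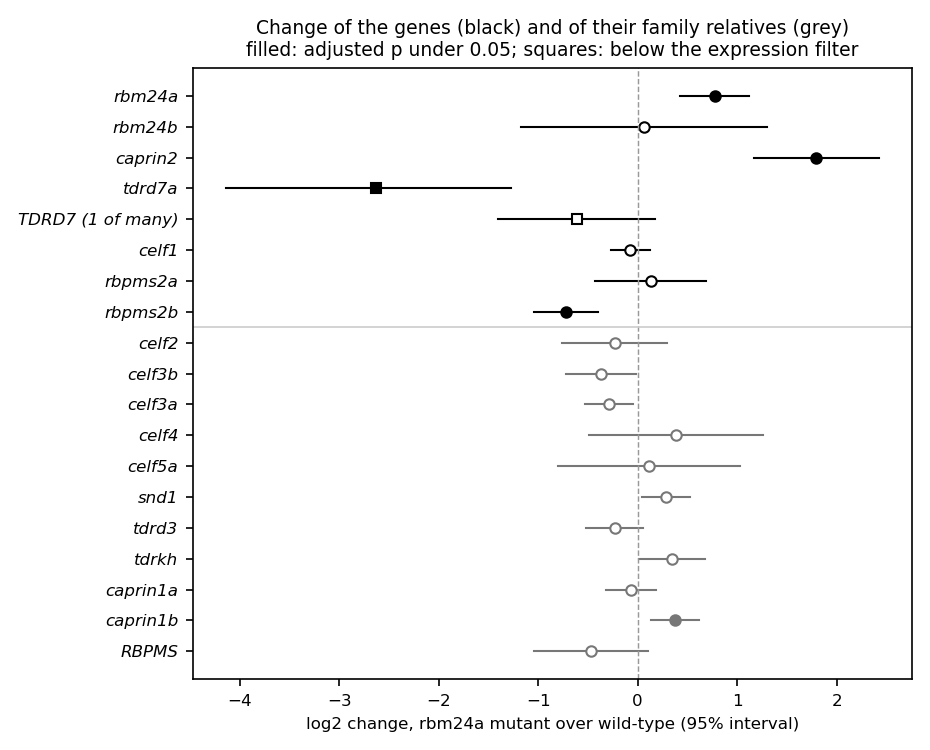
Log2 change of rbm24a mutants over wild-type (horizontal axis) with 95% intervals for the genes of the set and TDRD7 (1 of many) in black and for tested relatives of the celf, Tudor, caprin and rbpms families in grey. Filled symbols passed at an adjusted p under 0.05, and squares mark genes below the minimum of 0.5 FPKM, fitted with no minimum. Caprin2 and rbm24a lie above 0, rbpms2b and tdrd7a below, and caprin1b is the 1 relative that passed.

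In order of level per length, celf1 was first in both groups, at 23.1 FPKM in mutants and 25.2 FPKM in wild-type. In mutants rbm24a (8.20 FPKM) came next, followed by rbpms2b (3.44) and rbpms2a (2.77), whose ranges overlapped, then caprin2 (1.33), rbm24b (0.510), TDRD7 (1 of many) (0.326) and tdrd7a (0.0333). In wild-type rbpms2b (5.88 FPKM) and rbm24a (4.91) overlapped, followed by rbpms2a (2.60), TDRD7 (1 of many) (0.514), rbm24b (0.497), caprin2 (0.392) and tdrd7a (0.234). Each of the last 4 wild-type levels overlapped its neighbour in range. The place of caprin2 in this order was the fifth in mutants and the seventh in wild-type.

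The authors' deposited sheets of splicing events hold 10 events in all 7 genes matched by symbol, of which 5 are skipped exons, 4 are alternative 5' splice sites and 1 is an alternative 3' splice site. All have a false discovery rate (FDR) under 0.05 in the authors' deposited table. The share of all events in the sheets under that FDR was not counted here, so this is not a result about these genes. Retained introns and mutually exclusive exons hold none. Only 556 of 1030 stated alternative 3' splice site events are held here, so events of that type may be missing. Inclusion levels are fractions of transcripts with the longer form, and their 3 values per group carry no replicate number. Only 3 of the 10 events had at least 20 junction reads in every library, and in 0 of these 3 did the levels of the groups separate. All events of that depth with an FDR under 0.05 in the authors' deposited table were counted in the same way. Levels separated in 39.2% of these skipped exons, 37.0% of alternative 3' splice sites and 40.3% of alternative 5' splice sites. For retained introns and mutually exclusive exons the shares were 43.0% and 46.4%. Coordinates are those of the sheets, and the submitters' processing notes name the assembly GRCz11.

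Celf1 had both kinds of well-covered event. Its 123 bp exon (chromosome 7, 38289841 to 38289963, minus strand) had levels of 0.510, 0.672 and 0.580 in mutants and 0.460, 0.730 and 0.698 in wild-type in the authors' deposited table (FDR 1.55e-05). The mean level was 58.7% ± 8.13 in mutants and 62.9% ± 14.8 in wild-type (SD, n = 3 each), a difference of -4.2 percentage points that is smaller than the spread. A 12 bp extension at an alternative 3' splice site (exon from 38277518 to 38277587) had levels of 0.122, 0.106 and 0.046 in mutants and 0.182, 0.130 and 0.093 in wild-type, which overlapped (FDR 2.40e-17, authors' deposited table). Both lengths are multiples of 3, so either form keeps the reading frame if these bases are coding.

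In rbpms2b a 151 bp exon (chromosome 7, 47984207 to 47984357, minus strand) was included in nearly all wild-type junction reads and less fully in part of the mutant libraries. Its skipping junction had 0, 4 and 8 reads in mutants and 0, 0 and 1 reads in wild-type. Levels were 1.000, 0.842 and 0.756 in mutants and 1.000, 1.000 and 0.954 in wild-type in the authors' deposited table (FDR 0.000104), so that 1 mutant library matched the highest wild-type level. The length is not a multiple of 3. In rbpms2a a 15 bp extension at a 5' splice site (chromosome 25, exon from 6014649 to 6014812, plus strand) was used by 12 of 49 junction reads in mutants and 2 of 35 in wild-type. Its levels of 0.076, 0.325 and 0.168 in mutants overlapped those of 0.000, 0.000 and 0.123 in wild-type.

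The mutated gene has an event of its own. A 102 bp exon of rbm24a (chromosome 19, 46535298 to 46535399, plus strand) was mostly skipped, at levels of 0.151, 0.071 and 0.349 in mutants and 0.086, 0.060 and 0.090 in wild-type. In the authors' deposited table the mutant level was higher by 11.2 percentage points (FDR 1.43e-06). The 0.349 of 1 mutant library, from 28 inclusion and 31 skipping reads, stood far above the other 5 levels, and another mutant library lay within the wild-type range. The means of 19.0% ± 14.3 in mutants and 7.87% ± 1.63 in wild-type (SD, n = 3 each) therefore differed by less than the spread among mutants. The exon length is a multiple of 3.

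**Figure D4:**
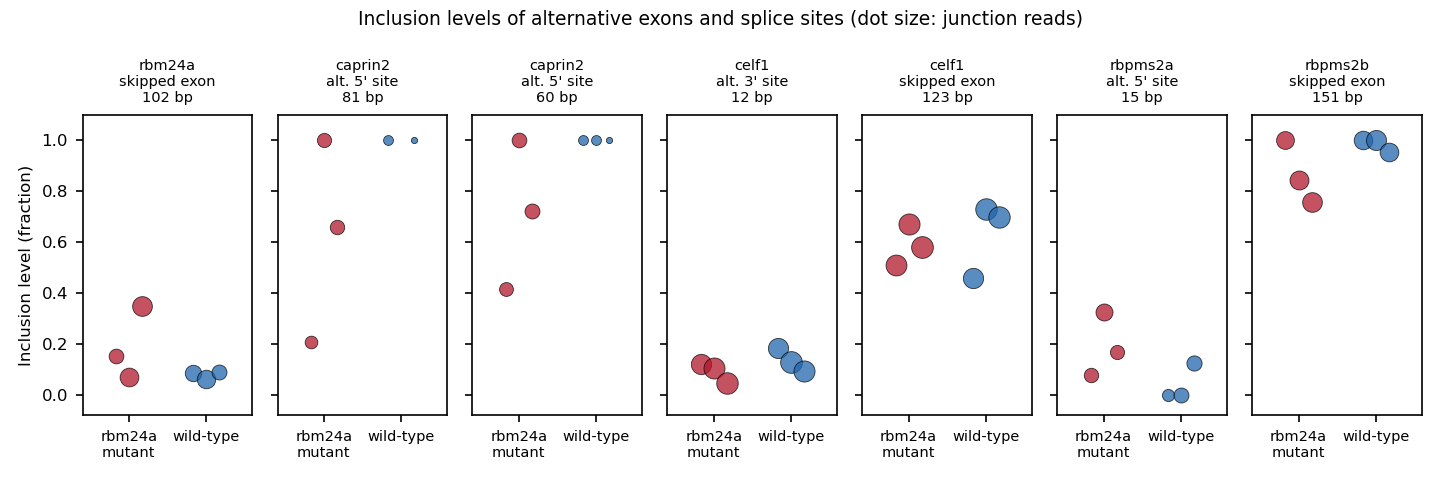
Inclusion level (vertical axis, fraction from 0 to 1) of 7 splicing events in rbm24a mutant (red) and wild-type (blue) libraries, where dot size grows with the number of junction reads and a library with none has no dot. The groups share levels or overlap in each of the 7 events.

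In its lowest library the rbm24a exon had 13 junction reads and the rbpms2a site had 6, both under the minimum of 20. The remaining events rest on fewer reads still. Caprin2 has a pair of alternative 5' splice sites (chromosome 4, exons from 16629705 and 16629726 to 16629890, minus strand) that add 81 and 60 bp and share their skipping reads. The shorter form had 5, 0 and 3 reads in mutants and 0 reads in wild-type, where the 60 bp event had only 7 junction reads in total against 37 in mutants. Rbm24b has an 82 bp exon (chromosome 16, 53578557 to 53578638, plus strand) with 8 junction reads in mutants and 5 in wild-type, and a 5' splice site event that overlaps it. Tdrd7a has a 111 bp exon (chromosome 1, 11527017 to 11527127, plus strand) with 1 junction read in mutants and 8 in wild-type. On these read numbers the authors' deposited table gives the tdrd7a exon an FDR of 0.000287 and the rbm24b exon 0.00266.

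Other proteins of RNA granules and mRNA control were read from a list of 36 symbols, of which 33 were tested. In the mutants 3 were higher and 2 lower, beside 6.71% and 7.48% of all genes tested. The median log2 change of the list was -0.01. Lsm14aa, a P-body protein that represses translation, had 191, 274 and 273 reads in mutants and 546, 530 and 554 in wild-type, with a log2 change of -1.19 (edgeR adjusted p = 3.13e-05). Xrn1, a 5' to 3' exonuclease, was higher by 0.46, fxr2, a relative of the fragile X protein, by 0.42 and ddx6, a P-body helicase, by 0.44. Dcp1b, a decapping cofactor, was lower by a log2 change of -0.49. Only lsm14aa held without any 1 library. The others lost the call in 3 to 5 of the 6 fits without 1 library, at adjusted p-values of up to 0.185, and 3 were higher and 7 lower without mutant replicate 2, beside 29.3% of all genes called.

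Transcripts that other work in mouse, human or fish reports as targets of these proteins, or that act in the same lens and Wnt steps, gave 3 higher and 1 lower of 23 tested, with a median log2 change of 0.04. Of all genes tested, 6.71% were higher and 7.48% lower. Myod1, a myogenic factor, was higher by 0.55 and lrp6, a Wnt co-receptor, by 0.37. The row dnase1l3l, whose identifier is named dnase1l1l in the table of gene names and encodes the DNase that clears lens fibre nuclei in fish, had 6, 7 and 24 reads in mutants and 31, 28 and 38 reads in wild-type (log2 change -1.43; edgeR adjusted p = 0.0466). The calls on myod1, lrp6 and dnase1l3l were lost in 3 or 4 of the 6 fits without 1 library, at adjusted p-values of up to 0.155. Cdkn1a, a cell cycle inhibitor, had 50, 48 and 47 reads in mutants and 29, 29 and 12 in wild-type and did not pass (log2 change 1.01; edgeR adjusted p = 0.0682), though it did with no minimum on FPKM (0.0282). Sox2, which Rbm24 protein binds in mouse eye, was at 42.8 ± 2.18 FPKM in mutants and 45.7 ± 5.01 FPKM in wild-type, within the spread.

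The genes whose pattern over the 6 libraries was most like that of 3 of these genes were found by Pearson's r of log2(CPM + 1), among 12037 named genes (12038 for caprin2) averaging at least 1 FPKM, as a description with no test. For rbm24a they were frem3, an extracellular matrix gene (r = 0.999), cgref1 (0.997) and ubald1a (0.994), all highest in mutant replicate 2. For caprin2 they included gsnb, an actin-severing gelsolin (0.999) and cmasb, an enzyme that activates sialic acid (0.996). For rbpms2b they were smug1, a DNA repair glycosylase (0.998), ephb3a, an Eph receptor (0.996) and epn3a, an epsin of endocytosis (0.995). The 6 libraries fall into the mutant and wild-type groups, and the genes share their library depth.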

How the data were processed

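Whole-embryo RNA was sequenced as 100 bp paired ends from TruSeq libraries, per the labels' protocols. The submitters' processing notes list HTSeq 0.6.1, HISAT2 2.0.1, DESeq2, cutadapt, bcl2fastq 2.17.1.14 and the assembly GRCz11, and give them no role. Deposited were read counts for each gene, and FPKM values that the authors' counts, exon lengths and gene-read totals give back within 0.005. The levels printed here were recomputed from the counts. The log2 fold changes and p-values of changed genes, and the splicing levels (fractions), their signed differences (a score per event), p-values and FDR, were taken as the authors deposited them. The sources used here do not give how strand and multi-copy reads were handled, and overlapping genes and near-identical copies remain uncertain. The earlier sample of the labels' comparison name was taken as wild-type in the splicing sheets. Alternative 3' splice sites are held here in part (556 of 1030 events stated). Skipped exons (1816 held, 1796 stated) and mutually exclusive exons (560 held, 499 stated) exceed their stated totals, and the reason was not found.

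Counts were tested with edgeR 4.0.16 in R 4.3.3 (TMM scaling, quasi-likelihood test, two-sided, Benjamini-Hochberg, threshold 0.05), on genes whose mean reached 0.5 FPKM. The test was checked on simulated data with independent libraries, none of them outlying as mutant replicate 2 is here. The genes and lists were chosen with earlier results of these data known. Named are the set, and called genes of the family, granule, target, muscle, heart, ganglion cell and germ cell lists, up to 6 per list. Called genes of the lens, smooth muscle, blood, epidermis and yolk or liver lists were only counted. Uncalled genes named beside the called ones were chosen after their values were seen. A gene counted in a list and a gene of like pattern are not reported here by name. Cells whose 3 junction counts had merged were parted to give back the deposited levels within 0.00051. DESeq2 1.42.0, limma 3.58.1, other scalings, filters, a replicate block and leaving out each library were tried.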

Additional observations from a re-analysis of the deposited data

How the results depend on the processing

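Caprin2, rbpms2b, celf1 and the second tdrd7 row kept their direction and side of the threshold in every alternative that tested them. Rbm24a lost its call with limma on log2(FPKM + 1) (log2 change 0.60) and with a pseudocount of 0.1 (0.68), and lay between 0.56 and 0.89 without any 1 library. Tdrd7a lay between -3.50 and -2.29 without any 1 library. Among the changes that did not pass, 2 turned sign without 1 library, rbm24b to -0.52 when mutant replicate 2 was left out, -0.26 with wild-type replicate 1 left out and -0.06 with wild-type replicate 3 left out (range to 0.66), and rbpms2a to -0.0599 when mutant replicate 2 was left out (range to 0.34). The cause was not tested. Over all genes 2341 passed, 1431 with a minimum of 5 FPKM, which tests fewer genes, and 1367 to 4828 without 1 library, the highest when mutant replicate 2 was left out and the lowest for wild-type replicate 3 (1383 for wild-type replicate 1). Of the set 3 passed, and 1 with a minimum of 5 FPKM, which removes caprin2 and rbpms2b. Of 10 splicing events, 3 had at least 20 reads in every library.

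With the replicate number as a block, 3387 genes passed and no call within the set changed (rbm24a 0.76, caprin2 1.79, rbpms2b -0.72 on the log2 scale). The labels do not state that the numbers pair libraries, so they were not taken as pairs. Same-numbered libraries deviated together with correlations of 0.24, 0.36 and 0.06. Between libraries of other numbers the correlations ran from -0.36 to 0.19, so a structure shared by replicate number remains possible. Mutant replicate 3 correlated best with wild-type replicate 1 (0.12). Alternatives for relatives and markers were chosen after seeing the data. Depth limits rbm24b, tdrd7a and all but 3 splicing events.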
